A study of Mus musculus with 12 samples.

Results

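Claudins are the membrane proteins that build the strands of tight junctions, the seals that join neighbouring epithelial cells near their apical edge. Each claudin spans the membrane several times and binds claudins of the same and of the opposing cell, and the mixture that a cell makes sets what passes between cells: some claudins tighten the seal, whereas others form pores for ions or water. In the liver, hepatocytes and bile duct cells both depend on such seals to keep bile apart from blood. The 10 claudin genes described here were taken from a list of names (Cldn1, Cldn2, Cldn3, Cldn4, Cldn6, Cldn7, Cldn8, Cldn12, Cldn18 and Cldn23), and all 10 were found among the 47069 genes of the count table. The list was chosen with earlier results of these data known.

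RNA was sequenced from cells sorted out of mouse liver cancer organoids, 3D cultures grown from tumors that diethylnitrosamine had induced. The libraries are labelled C57BL/6, although the study also lists tumor mice of a mixed background with C3H, and the mice carried the Lgr5–DTR–GFP knock-in allele, in which the Lgr5 locus drives a diphtheria toxin receptor and GFP, so that all 12 libraries share this allele and the tumors' cause. Cells with GFP (LGR5+) and without it (LGR5-) were taken from untreated organoids or from organoids treated with 5-fluorouracil (5-FU), an inhibitor of thymidylate synthesis, which gave 4 groups of 3 libraries: untreated LGR5-, untreated LGR5+, 5-FU LGR5- and 5-FU LGR5+. Injections of diethylnitrosamine began when mice were a few weeks old and tumors were collected months after the last one, but the age of the animals behind these libraries, the number of organoid lines and the duration of 5-FU for the sequenced cells are not given in the sources used here. A micromolar dose of 5-FU is stated for organoid cultures but not for the sequenced cells in particular. Nothing states that replicates came from separate cultures or animals, so P-values measure the spread between these libraries, which may be technical.

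Each library held between 13750591 and 19323514 counted reads, and 3 reads, the limit that a count of 0 allows, equalled 0.155 to 0.218 CPM (read counts scaled to the size of the library). Lgr5 itself did not separate the sorted cells: it had 454, 419 and 649 reads in untreated LGR5- cells and 476, 380 and 439 in untreated LGR5+ cells, a log2 difference of -0.17 (95% interval -0.67 to 0.33, adjusted P = 1, edgeR), and after 5-FU the log2 difference was 0.11 (95% interval -0.39 to 0.61, adjusted P = 0.842, edgeR). The libraries closest to each other were of different groups, untreated LGR5- replicate 1 and untreated LGR5+ replicate 1 (chi-square per degree of freedom 4.77, against at least 16.8 between libraries of 1 group), so their counts still differed beyond sampling noise. Mitochondrial transcripts took 6.93% of reads in untreated LGR5- replicate 3 and 6.44% in 5-FU LGR5- replicate 3, against 1.47% to 3.08% in the other libraries. Markers of hepatocytes were near 0 for a sample labelled liver cancer: Alb had 2 to 33 reads, Hnf4a 0 to 2 and Serpina1a 0 in each library, whereas Afp had 178 to 966. Bile duct markers were present (Epcam at 9193 to 26562 reads and Krt19 at 6169 to 76666), and so were 9 of 10 markers of lung epithelium in all 12 libraries, Sftpc with 46591 to 315963 reads.

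The claudin genes lie on 7 chromosomes (GENCODE M21, mouse build GRCm38). Cldn3 (chr5:134986214-134987472, forward strand, 1 exon) and Cldn4 (chr5:134945119-134946934, reverse strand, 1 exon) are neighbours that point away from each other, 39279 bases apart. Cldn6 (chr17:23679249-23682446, forward strand) faces Cldn9, a claudin outside the list, across 137 bases. Cldn1 (chr16:26356642-26371841) and Cldn8 (chr16:88560828-88563183) share a chromosome at a distance. Cldn2 lies at chrX:139800828-139811386, Cldn7 at chr11:69964779-69967885, Cldn12 at chr5:5489537-5514958, Cldn18 at chr9:99689461-99717267 and Cldn23 at chr8:35824712-35826559.

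The promoters of Cldn3, Cldn4 and Cldn7 are shown because the first pair neighbour each other and rose together after 5-FU, whereas Cldn7, next to Cldn3 in level per kilobase, did not pass the test. Each sequence is the 250 bases before the transcription start in RefSeq (GRCm38.p6), read 5′ to 3′ on the strand of the gene, with capitals for 4 motifs searched on both strands. The motifs were the GC box, spelled GGGCGG, the TATA box, spelled TATAAA, the E-box that Snail-type repressors bind, spelled CAGGTG, and a Grainyhead-type site, spelled AACCNGTT, and no matches in these windows overlapped each other.
Cldn3, chr5:134985964-134986213, forward strand: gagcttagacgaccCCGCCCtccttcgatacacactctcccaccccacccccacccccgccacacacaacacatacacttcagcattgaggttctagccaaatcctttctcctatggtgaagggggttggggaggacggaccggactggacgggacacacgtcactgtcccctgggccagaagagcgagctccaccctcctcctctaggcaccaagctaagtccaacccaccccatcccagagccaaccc
Cldn4, chr5:134946935-134947184, reverse strand: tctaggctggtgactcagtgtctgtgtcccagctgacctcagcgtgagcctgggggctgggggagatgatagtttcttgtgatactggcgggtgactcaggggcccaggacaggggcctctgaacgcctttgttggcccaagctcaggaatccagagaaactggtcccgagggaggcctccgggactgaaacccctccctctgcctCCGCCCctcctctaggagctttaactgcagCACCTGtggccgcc
Cldn7, chr11:69964529-69964778, forward strand: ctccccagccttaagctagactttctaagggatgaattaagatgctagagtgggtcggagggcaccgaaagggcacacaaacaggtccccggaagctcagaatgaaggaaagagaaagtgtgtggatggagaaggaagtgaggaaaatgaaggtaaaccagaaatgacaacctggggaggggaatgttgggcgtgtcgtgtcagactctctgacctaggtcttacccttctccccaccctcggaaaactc
The Cldn3 window held a GC box that begins 236 bases before the start. The Cldn4 window held a GC box 44 bases and a Snail-type E-box 14 bases before the start, and the Cldn7 window held none of the 4 motifs. A window before a further RefSeq start of Cldn7, within the gene, held a GC box 6 bases and E-boxes 97 and 57 bases before that start. Of 32851 mouse promoter windows of the same length, 32.7% held the GC box, 17.2% the E-box, 12.4% the TATA box and 1.79% the Grainyhead-type site. Promoter windows were found for 8 of the 10 genes (not for Cldn8 and Cldn23), and among those 8 the TATA box occurred only in the Cldn2 window, 35 bases before the start, and the Grainyhead-type letters in none. A match is a run of letters and not a site shown to be bound.

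Claudin genes resemble each other in sequence, so the longest identical run between each gene and any other claudin was found. The runs are shown because they limit how far reads of one gene could be counted for the other.
Cldn3 and Cldn4, coding sequence, capitals for identical bases: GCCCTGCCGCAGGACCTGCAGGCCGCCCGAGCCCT
Cldn6 and Cldn9, coding sequence, capitals for identical bases: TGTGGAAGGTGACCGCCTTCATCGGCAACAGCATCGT
These runs were 35 and 37 bases long, and those of the other listed genes were 13 to 22 bases. Cldn3 also overlaps an exon of Wbscr25 on the opposite strand. The SMART-Seq protocol of the labels does not keep strand, so reads in the overlap cannot be told apart. Wbscr25 lay between 4.06 and 29.8 CPM after TMM scaling (edgeR's correction of library sizes), against 346 to 1279 for Cldn3.

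Of the 10 claudin genes, 8 had more than 3 reads in all 12 libraries. The exceptions were Cldn1, which is needed for the skin barrier, with 0 to 24 reads, and Cldn18, the claudin of lung and stomach, with 1 to 33. All 10 passed the filter on low counts, Cldn1 only through its treated libraries, since no untreated one had more than 4 reads. Per kilobase of exon, the levels of which are comparable between genes, Cldn3 was highest, followed by Cldn7 and then Cldn6 by mean in all 4 groups, although Cldn7 (197 to 283) and Cldn6 (147 to 208) overlapped in 5-FU LGR5- cells. In untreated LGR5+ cells the levels were 336 ± 24.4 CPM per kilobase for Cldn3, 225 ± 32.7 for Cldn7 and 77.3 ± 14.1 for Cldn6 (SD, n = 3). Cldn8 (50.8 ± 12.3), Cldn2 (39.5 ± 14.1) and Cldn4 (28.3 ± 4.91) followed, each overlapping its neighbour in that order, as did Cldn6 and Cldn8. Cldn23 (5.01 ± 1.71) and Cldn12 (2.52 ± 0.67) were well below them without overlap, and Cldn18 (0.158 ± 0.121) and Cldn1 (0.0289 ± 0.0190) were last.

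The same order held in untreated LGR5- cells, where Cldn3 (275 to 398 CPM per kilobase) and Cldn7 (174 to 293) overlapped, as did Cldn8 and Cldn2, Cldn2 and Cldn4, and Cldn18 and Cldn1. After 5-FU, the mean of Cldn4 passed those of Cldn8 and Cldn2 in both populations, at 109 ± 23.8 CPM per kilobase in LGR5+ and 89.3 ± 34.0 in LGR5- cells, although its libraries still overlapped those of Cldn8 (90.02 ± 15.6 and 67.1 ± 14.9). Cldn1 and Cldn18 also exchanged the last places, and their libraries overlapped in both populations. Among the 25 further genes of the claudin family in the table, 17 had at most 3 reads in all 12 libraries and 12 of these were at 0. Cldn9, Cldn10, Cldn11 and Cldn34c1 passed the filter.

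**Figure D1:**
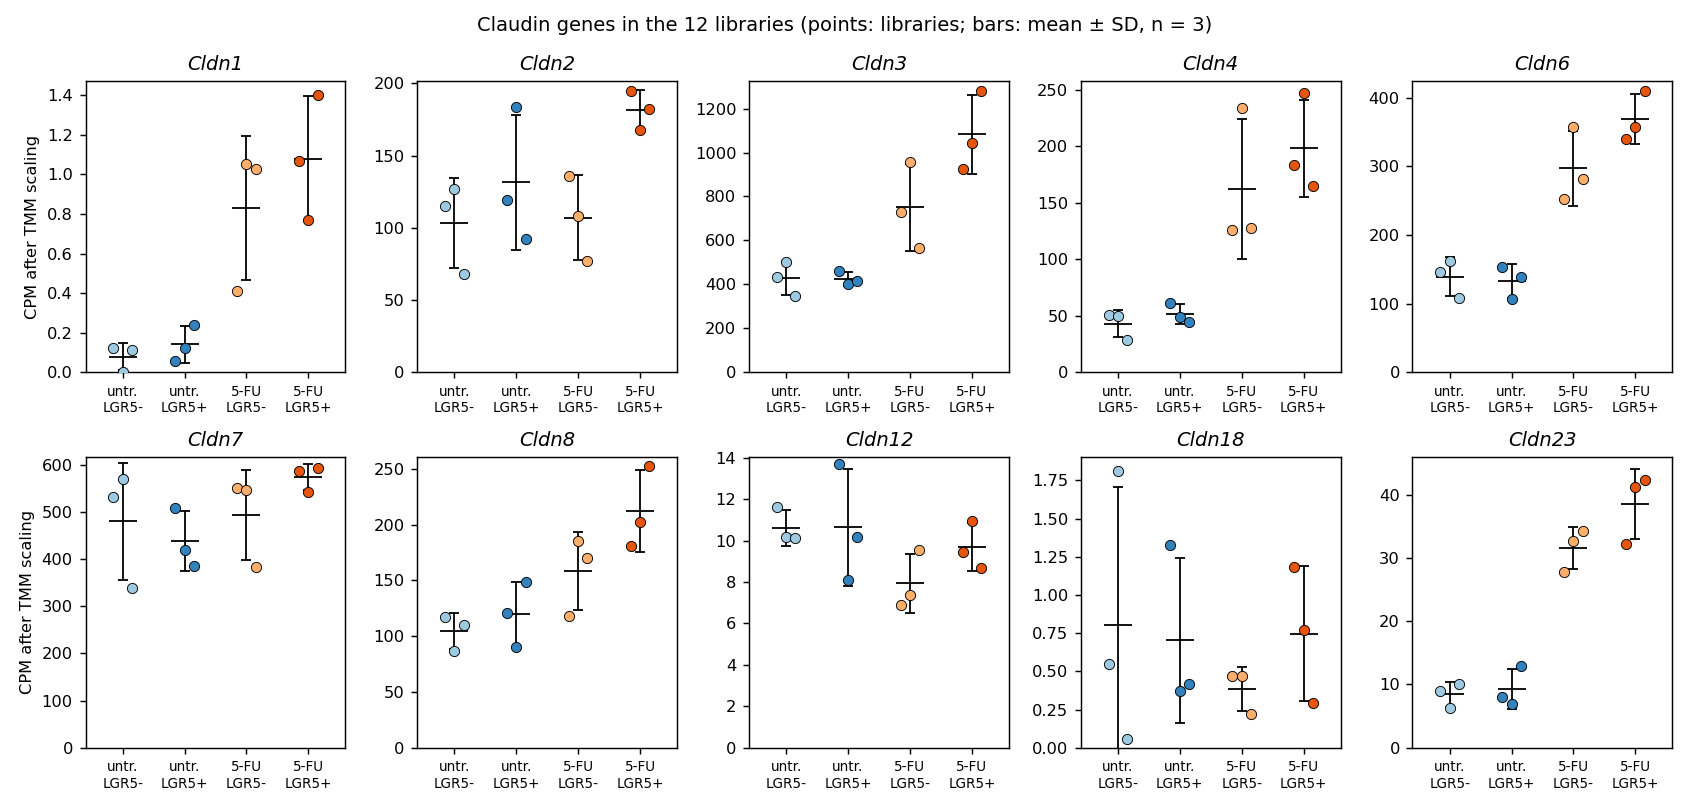
CPM after TMM scaling (vertical axes, linear, a scale of its own for each gene) of the 10 claudin genes in the 4 groups, untreated (blue) and 5-FU-treated (orange), light for LGR5- and dark for LGR5+; points are libraries, horizontal bars means and vertical bars SD (n = 3), which for Cldn18 would run below 0 and stops there. The 6 treated libraries lie above all 6 untreated ones for Cldn1, Cldn3, Cldn4, Cldn6 and Cldn23, whereas Cldn2, Cldn7, Cldn8, Cldn12 and Cldn18 overlap. The share of all genes separated in this way was not computed.

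Whether claudin genes changed with 5-FU was tested in each population against its untreated cells. In LGR5+ cells, 6 of the 10 genes rose (Cldn1, Cldn3, Cldn4, Cldn6, Cldn8 and Cldn23) and none fell, where over all 16157 genes tested 9.66% rose and 6.37% fell at an adjusted P under 0.05 (edgeR's quasi-likelihood test with Benjamini-Hochberg adjustment, as for every adjusted P below unless another is named). In LGR5- cells 5 of the 10 rose (Cldn1, Cldn3, Cldn4, Cldn6 and Cldn23) and none fell, against 8.3% and 7.11% of all genes. Cldn1 entered the test only through its treated libraries, where it was higher, so its rise adds no separate weight to these counts or those below. In LGR5+ cells the libraries of 7 of the 10 lay above all untreated ones and those of none lay below, where this held for 22.3% and 20% of all genes. In LGR5- cells the numbers were 6 and 1, beside 13.7% and 13.4% of all genes. At the thresholds of the study, which are a P under 0.05 and a logFC beyond 1.5 in size, Cldn1, Cldn4 and Cldn23 were counted in each population. This held for 7.23% of all genes in LGR5+ and 7% in LGR5- cells. Here P was unadjusted and the fold change log2, which the study does not specify. The median log2 fold change of the 10 genes was 1.09 in LGR5+ cells, beside -0.02 over all genes, and 0.705 in LGR5- cells, beside -0.05. The 4 tested claudins outside the list had medians of -0.419 in LGR5+ and 0.0383 in LGR5- cells. The 10 genes were chosen with earlier results of these data known, so these contrasts describe the list and carry no test. Since the RNA is bulk, more cells of a kind and more RNA per cell cannot be told apart.

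**Figure D2:**
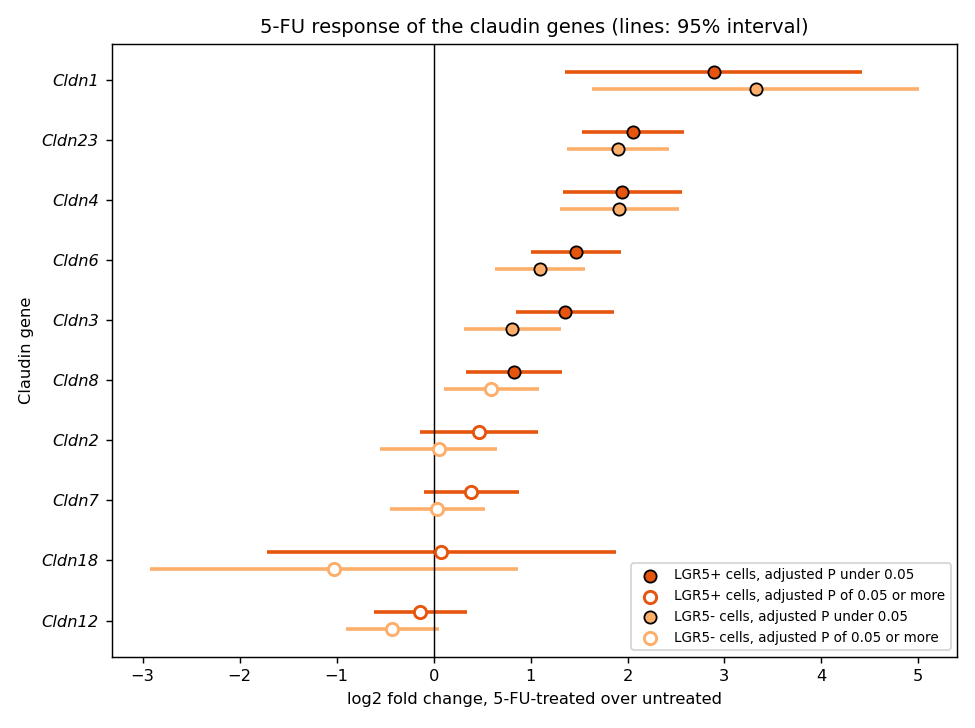
Fitted log2 fold change of 5-FU-treated over untreated cells (horizontal axis) for the 10 claudin genes (vertical axis), in LGR5+ (dark) and LGR5- (light) cells; lines are 95% intervals and filled points have an adjusted P under 0.05. Cldn1, Cldn23, Cldn4, Cldn6 and Cldn3 are filled in both populations, Cldn8 in LGR5+ cells alone (0.825 against 0.60), and the difference between populations was not significant for any of them.

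Cldn3 and Cldn4 encode claudins that tighten the junction and are both receptors of an enterotoxin of Clostridium perfringens. Cldn3 stood at 433, 501 and 346 CPM in untreated LGR5- and 458, 399.8 and 413 in untreated LGR5+ cells. After 5-FU it stood at 729.6, 958 and 564 CPM in LGR5- and 924, 1045 and 1279 in LGR5+ cells, so that each treated library was above each untreated one. The log2 fold change was 1.35 ± 0.24 in LGR5+ (SE, adjusted P = 0.00131) and 0.81 ± 0.23 in LGR5- cells (adjusted P = 0.0290). The latter call was lost in a fit of only the libraries compared, where the log2 fold change was 0.82 (adjusted P = 0.120). It was also lost without untreated LGR5- replicate 1 or 3 (log2 fold change 0.82 and 0.68, adjusted P = 0.0885 and 0.0612) or 5-FU LGR5- replicate 1 or 2 (0.83 and 0.59, adjusted P = 0.0506 and 0.133).

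Cldn4 stood at 50.4, 49.8 and 28.8 CPM in untreated LGR5- and 61.3, 48.9 and 44.0 in untreated LGR5+ cells. It reached 126, 234 and 128 CPM in 5-FU LGR5- and 184, 247 and 165 in 5-FU LGR5+ cells, where the lowest treated library had more than the highest untreated one. Its log2 fold changes were nearly equal, 1.95 ± 0.29 in LGR5+ (adjusted P = 0.000367) and 1.92 ± 0.29 in LGR5- cells (adjusted P = 0.000561). Across the 12 libraries the log2 CPM of Cldn3 and Cldn4 had a Pearson r of 0.932, a description of libraries that share 4 groups and not a test.

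Cldn6, a claudin of embryonic epithelia that is low in most adult tissues, stood at 147, 163 and 108 CPM in untreated LGR5- and 154, 106 and 139 in untreated LGR5+ cells. After 5-FU it stood at 252, 357 and 282 CPM in LGR5- and 339.8, 357.5 and 409.5 in LGR5+ cells, clear of the untreated libraries. The log2 fold change was 1.47 ± 0.22 in LGR5+ (adjusted P = 0.000367) and 1.10 ± 0.22 in LGR5- cells (adjusted P = 0.00369). Cldn9, its neighbour across 137 bases, was far lower, at 2.12 ± 0.92 CPM in untreated and 5.77 ± 1.18 in 5-FU LGR5+ cells (log2 fold change 1.44 ± 0.33, adjusted P = 0.00856), and at 2.14 ± 0.13 and 4.10 ± 0.69 CPM in LGR5- cells (0.94 ± 0.33, adjusted P = 0.0729). Of the other tested claudins outside the list, Cldn10 and Cldn11 passed the test in neither population (log2 fold changes between -0.55 and 0.24, adjusted P of at least 0.558), and Cldn34c1, named after its values were seen, fell in LGR5- cells from 3.47 ± 0.64 to 1.595 ± 0.47 CPM (log2 fold change -1.12 ± 0.34, adjusted P = 0.0369). In LGR5+ cells it stood at 2.87 ± 0.43 and 1.59 ± 0.28 CPM, also without overlap (-0.85 ± 0.34, adjusted P = 0.102).

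Cldn23, a claudin of differentiated intestinal epithelium, stood at 8.91, 6.31 and 10.1 CPM in untreated LGR5- and 7.97, 6.94 and 12.8 in untreated LGR5+ cells. It reached 27.8, 32.6 and 34.3 CPM in 5-FU LGR5- and 32.2, 41.2 and 42.3 in 5-FU LGR5+ cells, with a wide gap to every untreated library. The log2 fold change of 2.06 ± 0.25 in LGR5+ cells had the smallest adjusted P of the 10 genes (6.2e-05), and it was 1.90 ± 0.25 in LGR5- cells (adjusted P = 0.000174). Cldn23 is a single-exon gene with no overlapping annotation.

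Cldn1 had 2, 0 and 2 reads in untreated LGR5- and 1, 2 and 4 in untreated LGR5+ libraries. After 5-FU it had 7, 18 and 14 reads in LGR5- and 19, 14 and 24 in LGR5+ libraries, so it was low throughout but higher in each treated library. In LGR5+ cells the fitted log2 fold change was 2.89 ± 0.72 (adjusted P = 0.0129). This call was lost without untreated LGR5+ replicate 1 or 2 (log2 fold change 2.53 and 2.81, adjusted P = 0.0614 and 0.0567) or 5-FU LGR5+ replicate 3 (2.66, adjusted P = 0.0646). In LGR5- cells no untreated library exceeded 3 reads, so the fold is a lower bound: at least 4.86-fold higher against 3 reads per library, with an adjusted P of 0.0109. In a fit of only the LGR5- libraries Cldn1 did not pass the filter on low counts and was not tested.

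Cldn8, known from the distal nephron, where it restricts the passage of cations, stood at 117, 86.7 and 109.7 CPM in untreated LGR5- and 121, 90.1 and 148 in untreated LGR5+ cells. After 5-FU it stood at 118, 186 and 170.3 CPM in LGR5- and 181, 203 and 253 in LGR5+ cells. Treated libraries were above the untreated ones within each population, although in LGR5- cells the lowest treated library only just exceeded the highest untreated one. The log2 fold change was 0.825 ± 0.23 in LGR5+ (adjusted P = 0.0247) and 0.60 in LGR5- cells (95% interval 0.10 to 1.09, adjusted P = 0.0991). The call in LGR5+ cells was lost without untreated replicate 1 or 2 (log2 fold change 0.83 and 0.66, adjusted P = 0.0661 and 0.117) or treated replicate 2 or 3 (0.86 and 0.68, adjusted P = 0.0655 and 0.127), and in LGR5- cells a call was gained without treated replicate 1 (log2 fold change 0.77, adjusted P = 0.0440).

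The remaining 4 genes passed the test in neither population. Cldn7, which binds EpCAM and lies along the lateral membrane, stood at 531, 570.3 and 339 CPM in untreated LGR5- and 509, 419.7 and 386 in untreated LGR5+ cells. After 5-FU it stood at 551, 546 and 383 CPM in LGR5- and 586, 541 and 593 in LGR5+ cells. The treated LGR5+ libraries lay above the untreated ones, but the log2 fold change was 0.39 (95% interval -0.10 to 0.88, adjusted P = 0.284), and in LGR5- cells it was 0.04 (-0.45 to 0.53, adjusted P = 0.934). In both treatments replicate 3 was the lowest LGR5- library for Cldn7, Cldn3 and Cldn2. It is also the library with the high mitochondrial share, whose part in these levels was not tested. Without both of these libraries the counts of genes called stayed at 6 in LGR5+ and 5 in LGR5- cells.

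Cldn2, which forms a pore for cations and water, stood at 115, 127 and 67.8 CPM in untreated LGR5- and 119, 183 and 92.1 in untreated LGR5+ cells. After 5-FU it stood at 136, 108 and 77.0 CPM in LGR5- and 195, 167 and 182 in LGR5+ cells, within or close to the untreated range. The log2 fold change was 0.47 in LGR5+ (95% interval -0.14 to 1.07, adjusted P = 0.303) and 0.05 in LGR5- cells (-0.55 to 0.66, adjusted P = 0.928). Both intervals include 0 and also a rise of over 1.5-fold.

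Cldn12, which lacks the C-terminal motif by which other claudins bind scaffold proteins, stood at 11.6, 10.2 and 10.1 CPM in untreated LGR5- and 13.7, 8.11 and 10.2 in untreated LGR5+ cells. After 5-FU it stood at 6.89, 7.38 and 9.54 CPM in LGR5- and 9.44, 10.95 and 8.65 in LGR5+ cells. It was the only one of the 10 genes whose treated LGR5- libraries all lay below the untreated ones, but the log2 fold change was -0.42 (95% interval -0.91 to 0.06, adjusted P = 0.236). In LGR5+ cells it was -0.14 (-0.62 to 0.34, adjusted P = 0.730).

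Cldn18 had 9, 33 and 1 reads in untreated LGR5- and 23, 6 and 7 in untreated LGR5+ libraries, and 8, 8 and 3 reads in 5-FU LGR5- and 21, 14 and 5 in 5-FU LGR5+ libraries. The untreated libraries with the most Cldn18 reads (33, 23 and 9) were those with the most reads of Sftpc, the surfactant gene of the lung alveolus (315963, 271288 and 271410), whereas the other 3 had 61956, 93807 and 81876 Sftpc reads with 1, 6 and 7 Cldn18 reads. The treated libraries did not follow this order: 5-FU LGR5+ replicate 1 had the most Cldn18 reads of them (21) and the fewest of Sftpc (46591), and replicate 3 had 5 Cldn18 and 95776 Sftpc reads. The part of lung epithelium markers in the Cldn18 level was not tested. The log2 fold change with 5-FU was 0.08 (95% interval -1.72 to 1.88) in LGR5+ and -1.03 (-2.92 to 0.87) in LGR5- cells (adjusted P = 0.963 and 0.489). The intervals include 0 and changes in either direction.

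The make-up of claudin transcripts is described by shares within each library. Summed over the 10 genes, the level was 603 to 894 CPM per kilobase in the 6 untreated and 995 to 1836 in the 6 treated libraries. Cldn3 and Cldn7 together made up 64.8% to 77.3% of this sum. The share of Cldn7 was 27.1% to 33.2% in untreated and 16.6% to 23.9% in treated libraries, whereas that of Cldn4 was 2.63% to 4.004% and 4.94% to 8.53%, and that of Cldn6 8.57% to 11.03% and 12.4% to 16.5%. Cldn3 took 41.9% to 45.7% of the sum in untreated and 45.0% to 55.3% in treated libraries, with an overlap. The pore former Cldn2 was 3.38% to 7.65% of the sum in untreated and 2.15% to 3.94% in treated libraries, also with an overlap. The ratio of Cldn3 to Cldn7 per kilobase, which no scaling of libraries can alter, was 1.26 to 1.65 in untreated and 2.05 to 3.34 in treated libraries. The ratio of Cldn4 to Cldn7 was 0.0909 to 0.129 and 0.244 to 0.489. Both ratios were chosen after the values were seen, so they are given without a test.

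**Figure D3:**
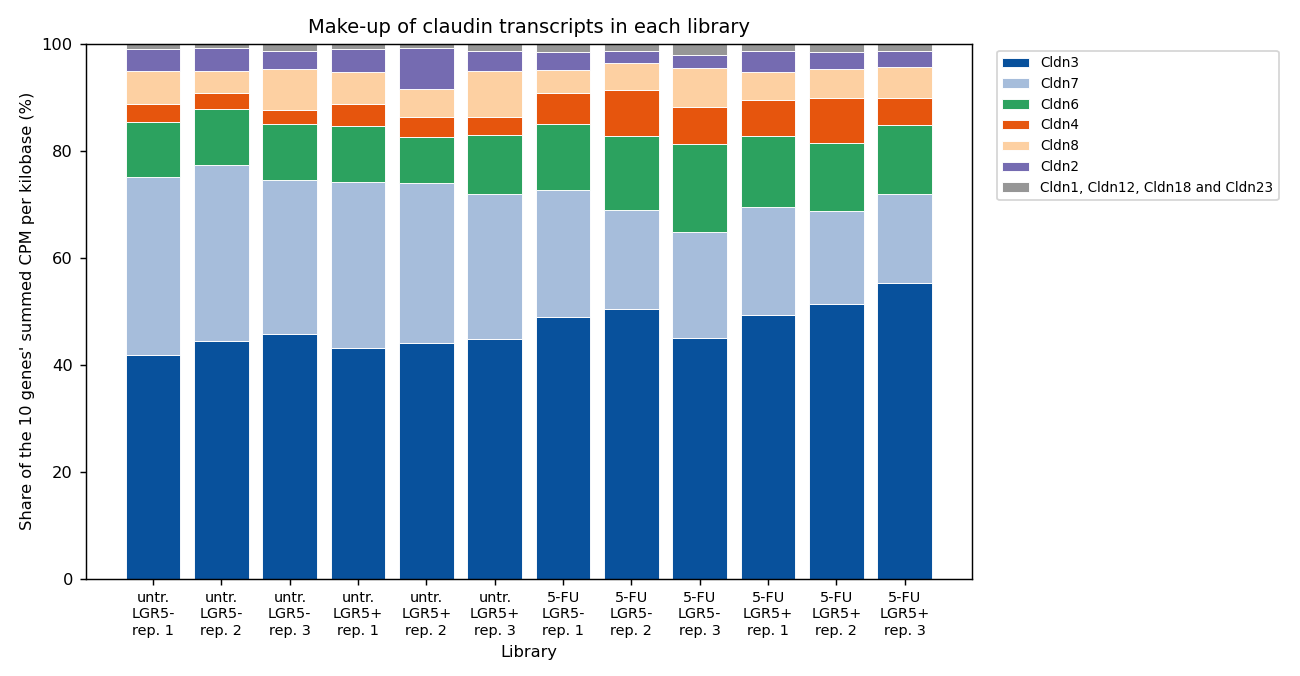
Share (%) of each claudin gene in the summed CPM per kilobase of the 10 genes (vertical axis) in each of the 12 libraries (horizontal axis), with the 4 least abundant genes combined. Cldn7 takes at least 27.1% in every untreated and at most 23.9% in every treated library, and Cldn4 at most 4.004% and at least 4.94%.

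LGR5+ and LGR5- cells were compared within each treatment. In untreated cells none of the 10 claudin genes differed, and the libraries of the populations overlapped for each of them, where 2.7% of all genes lay higher and 2.57% lower in LGR5+ cells without overlap. Log2 differences ran from -0.19 to 0.81 with an adjusted P of 1 for each gene, and none of the 10 had an unadjusted P under 0.05. Over all genes edgeR called 0% (0 of 16157, with 214 or 1.32% at an unadjusted P under 0.05), and DESeq2 called 0. Without either of the 2 libraries closest to each other (replicate 1 of each untreated population), the count over all genes was again 0. The intervals bound the more abundant genes: for Cldn3 the log2 difference was -0.01 (95% interval -0.51 to 0.48) and for Cldn7 it was -0.13 (-0.62 to 0.36).

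After 5-FU, all 10 genes had a log2 difference above 0 in LGR5+ against LGR5- cells (0.22 to 0.92), but none passed the test. The median over all genes was 0.0255, and the share of all genes above 0 was not computed. The share of all genes called was 0% (0 of 16157, with 2095 or 13% at an unadjusted P under 0.05), and DESeq2 called 79 genes, none of them a listed claudin. The unadjusted threshold was passed by 2 of the 10 genes, Cldn2 (log2 difference 0.76, 95% interval 0.15 to 1.37, adjusted P = 0.357) and Cldn3 (0.53, 95% interval 0.03 to 1.03, adjusted P = 0.373). For Cldn2 each LGR5+ library (195, 167 and 182 CPM) lay above each LGR5- library (136, 108 and 77.0), which held for 14.2% of all genes, and for 10.2% each LGR5+ library lay below. No label pairs the libraries, but treated ones of the same number were taken as paired from their likeness in these same data. A fit of the 6 treated libraries with replicate as a block was added after the data were seen. In it the log2 difference of Cldn2 was 0.73 with an adjusted P of 0.0462, past the threshold. That fit called 451 of 15196 genes (2.97%), and Cldn2 was the only one of the 10 claudin genes among them, whereas with the block in the fit of all 12 libraries the log2 difference of Cldn2 was 0.82 with an adjusted P of 0.201. Cldn3 had 564 to 958 CPM in treated LGR5- and 924 to 1279 in treated LGR5+ cells, with an overlap, and was higher in LGR5+ cells in all 3 same-numbered pairs (729.6 and 924, 958 and 1045, 564 and 1279). The log2 difference of Cldn3 with the block in the 6 libraries was 0.48 (adjusted P = 0.170). Of the 10 genes, 7 were higher in LGR5+ cells in all 3 pairs (Cldn2, Cldn3, Cldn4, Cldn6, Cldn8, Cldn18 and Cldn23) and none was lower in all 3, where 29.6% of all genes were higher and 22.8% lower in all 3. Cldn6 differed by little in the second pair (357.4 and 357.5 CPM). For Cldn7 the log2 difference was 0.22 (95% interval -0.27 to 0.71, adjusted P = 0.650).

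Whether the 5-FU response itself differed between the populations was tested as an interaction. It did not for any of the 10 genes (adjusted P = 0.9998 for each), nor for any of the 16157 genes (0%), of which 254 (1.57%) had an unadjusted P under 0.05, and DESeq2 called 0. The widest departure among the well-expressed claudin genes was that of Cldn3, where the log2 fold change was 0.54 higher in LGR5+ cells (95% interval -0.16 to 1.24). For Cldn4 the difference was 0.03 (-0.81 to 0.87) and for Cldn23 it was 0.15 (-0.57 to 0.88).

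Other proteins of the tight junction were read from lists of names, beside the shares over all genes given above (9.66% rose and 6.37% fell in LGR5+ cells, 8.3% and 7.11% in LGR5- cells). These lists, and those of the cell type markers below, were also chosen with earlier results of these data known. Of 13 tested genes for further membrane proteins of the junction, 5 rose with 5-FU in LGR5+ cells (Marveld2, F11r, Ildr1, Ildr2 and Igsf5) and none fell, and in LGR5- cells Ildr1 and Ildr2 rose. Ildr1 and Ildr2, which encode angulins that recruit tricellulin to the corners where 3 cells meet, had log2 fold changes of 1.23 ± 0.18 and 1.62 ± 0.32 in LGR5+ cells (adjusted P = 0.0003 and 0.00346) and of 0.79 ± 0.18 and 1.33 ± 0.32 in LGR5- cells (0.00774 and 0.0112). Occludin (Ocln) just missed the threshold in LGR5+ cells (0.67 ± 0.22, adjusted P = 0.0512) and was at -0.01 ± 0.22 in LGR5- cells (adjusted P = 0.991).

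Of 24 scaffold and polarity genes, 4 rose and 2 fell in LGR5+ cells, and 5 rose and 2 fell in LGR5- cells. The 2 that fell (Mpdz and Magi1 in LGR5+, Mpdz and Sympk in LGR5- cells) are 8.33% of the list, near the share over all genes. Mpdz, the multi-PDZ scaffold that binds the tails of claudins, fell by 1.34 on the log2 scale in LGR5+ (SE 0.20, adjusted P = 0.000398) and by 1.43 in LGR5- cells (SE 0.20, adjusted P = 0.000321). Magi1, a scaffold of the junction, fell by 0.88 in LGR5+ cells (SE 0.27, adjusted P = 0.0408), and its log2 fold change was -0.16 ± 0.27 in LGR5- cells (adjusted P = 0.745). Amotl2 (1.18 ± 0.17, adjusted P = 0.000364) and Pard6g, a partner of the atypical protein kinase C (0.995 ± 0.17, adjusted P = 0.00104), rose in LGR5+ cells, and both rose in LGR5- cells (1.013 ± 0.17 and 0.78 ± 0.17, adjusted P = 0.00154 and 0.00628). Tjp1, the scaffold ZO-1, rose in LGR5- cells (0.58 ± 0.16, adjusted P = 0.0233) and had 0.41 ± 0.16 in LGR5+ cells (adjusted P = 0.0952). It was named, with Ocln, after its values were seen.

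Of 8 genes for claudin partners and proteases, 2 rose in LGR5+ (Cdh1 and Spint1) and 1 in LGR5- cells (Spint1). Spint1, which encodes HAI-1, an inhibitor of membrane serine proteases, had log2 fold changes of 0.96 ± 0.16 in LGR5+ (adjusted P = 0.000816) and 0.75 ± 0.16 in LGR5- cells (adjusted P = 0.00545). Cdh1, the E-cadherin of the adherens junction, had log2 fold changes of 1.07 ± 0.21 in LGR5+ (adjusted P = 0.00283) and 0.54 ± 0.21 in LGR5- cells (adjusted P = 0.0933). Of 12 tested regulators of claudin genes, 5 rose in LGR5+ cells and 3 in LGR5- cells, with none lower, which is 41.7% and 25% of the list. Grhl3, a Grainyhead factor of barrier epithelia, rose by 2.002 ± 0.22 on the log2 scale in LGR5+ (adjusted P = 3.4e-05) and by 1.65 ± 0.22 in LGR5- cells (adjusted P = 0.000227). Snai2, which encodes Slug, a repressor of E-cadherin and claudin genes, rose in LGR5+ cells from 2.80 ± 0.83 to 10.4 ± 2.86 CPM (log2 fold change 1.89 ± 0.37, adjusted P = 0.00283) and had 0.46 ± 0.39 in LGR5- cells (adjusted P = 0.480).

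**Figure D4:**
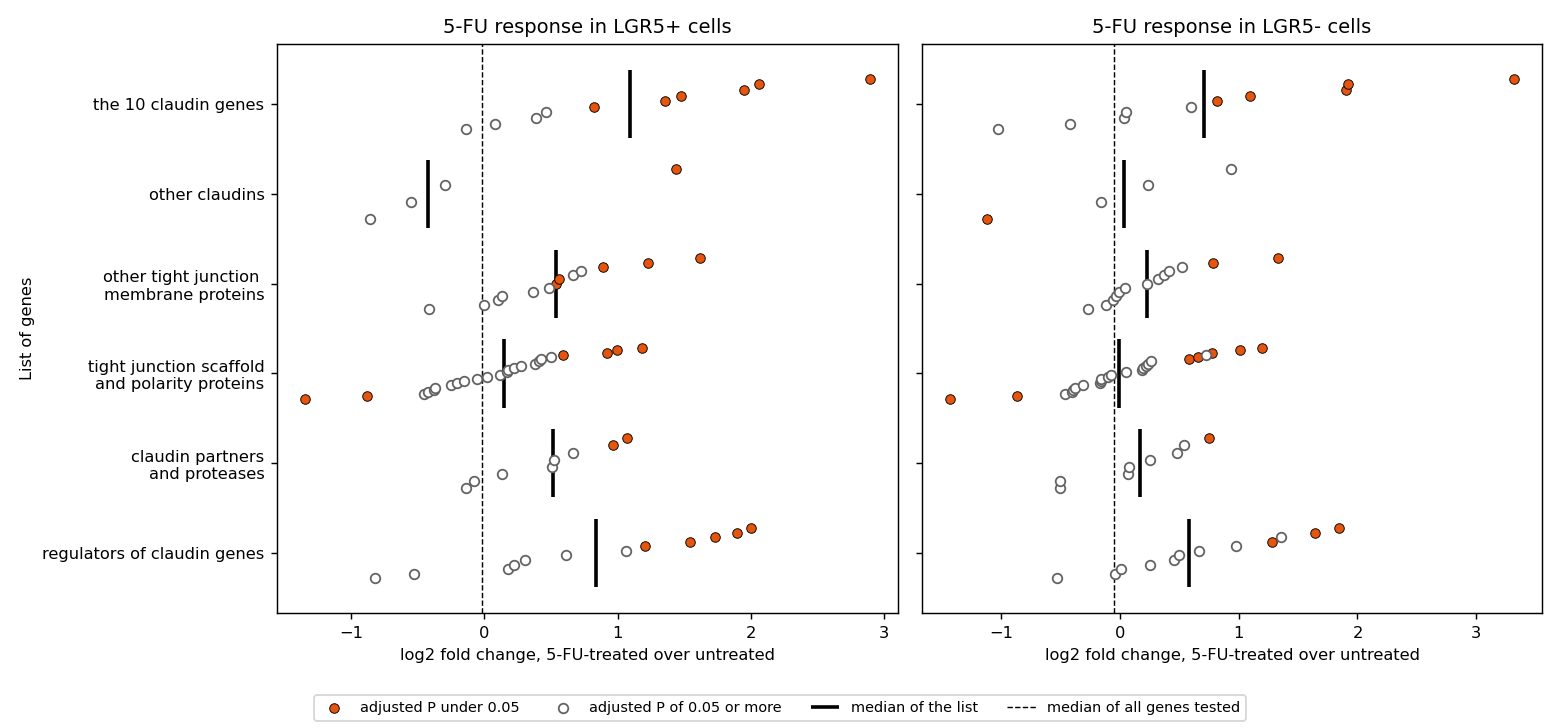
Fitted log2 fold change of 5-FU-treated over untreated cells (horizontal axes) for the tested genes of each list (vertical axis) in LGR5+ (left) and LGR5- (right) cells; filled points have an adjusted P under 0.05, short vertical bars are list medians and the dashed line is the median of all genes. The 10 claudin genes have medians of 1.09 and 0.705, and the 24 scaffold and polarity genes 0.145 and -0.01.

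Markers of other epithelia moved with these changes, and their counts stand beside the 9.66% of all genes that rose in LGR5+ and 8.3% in LGR5- cells. Of 11 stratified epithelium markers, 7 had more than 3 reads in all 12 libraries and 10 rose in each population. Among them, Krt6b, Krt16, Krt13 and Dsg3 had at most 10 reads in any untreated library. They passed the filter only through treated libraries, so a fall of these genes could not have been called. Their summed level was 41.8 to 130 CPM by library size in untreated and 233 to 1564 in treated libraries, with none of the 11 at 0 in all libraries. Of 8 bile duct markers, 6 had more than 3 reads in all 12 libraries, and Krt19 and Krt7 rose in each population, while Epcam did not pass the test (log2 fold change -0.13 in LGR5+ and -0.50 in LGR5- cells, adjusted P = 0.745 and 0.164). The 10 leukocyte markers summed to 11.8 to 40.3 CPM in untreated and 74.8 to 131 in treated libraries, through Lyz2 and Cd68, with Cd3e at 0 and Ptprc at 3 to 36 reads. The 7 endothelial markers summed to 2.38 to 6.84 CPM with Emcn at 0, and the 7 fibroblast markers to 26.9 to 60.4 CPM with Lum at 0, over all groups. The fibroblast sum came mostly from Dcn (430 to 870 reads), while Col1a1 had at most 11 reads, Col3a1 at most 3 and Col1a2 at most 1. More than 3 reads in all 12 libraries were found for 2 of the leukocyte, 2 of the endothelial, 2 of the fibroblast and 1 of the 10 hepatocyte markers, Afp, which rose in each population. The sort used CD45 (Ptprc) staining to keep leukocytes out. Of the 10 lung epithelium markers 4 rose in LGR5+ cells (Sftpd, Lamp3, Ager and Hopx) and 4 in LGR5- cells (Sftpd, Ager, Hopx and Scgb1a1), and none fell. The summed level of the 10, which is mostly that of Sftpc, was 4061 to 16610 CPM in untreated and 3078 to 6630 in treated libraries, with an overlap. Sftpc went from 12410 ± 7778 to 5194 ± 1109 CPM in LGR5- cells (log2 fold change -1.26, adjusted P = 0.147) and from 8773 ± 5984 to 4285 ± 1521 in LGR5+ cells (-1.03, adjusted P = 0.228), and it did not pass the test. The part of these cell types in the claudin levels was not tested.

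The genes whose log2 CPM was most like each of the 4 most abundant claudin genes across the 12 libraries were sought among 9090 candidates with a mean of at least 10 CPM. For Cldn3 these were Krt18 (Pearson r = 0.990), Krt8 (0.988), which are the keratin pair of simple epithelia, and Tpm1 (0.986), a tropomyosin. Krt18 went from 1389 ± 58.8 to 4210.0 ± 846 CPM and Krt8 from 666 ± 169.6 to 3537 ± 666 with 5-FU in LGR5+ cells. For Cldn6 they were Tax1bp3 (0.992), Aldh1a3 (0.989) and Trim16 (0.987), for Cldn7 Eif6 (0.960), Psen2 (0.955) and Ccdc86 (0.942), and for Cldn8 Serinc3 (0.972), Tmem59 (0.947) and Ndel1 (0.945). The points share the 4 groups and the amplification protocol, so these values describe likeness over these libraries and carry no test.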

How the data were processed

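RNA of the sorted cells was amplified (SMARTer kit) before paired-end sequencing. The authors deposited whole-number read counts, 1 table of 47069 Ensembl genes and 12 libraries, without normalization. The submitters' notes name HISAT, HISAT2, TopHat2, HTSeq and the build mm8, without roles or versions. Symbols and positions came from GENCODE M21 (46488 identifiers matched, 581 did not) and describe that annotation, not the counting. The sample titles give control or treated and negative or positive. That these mean 5-FU and LGR5–GFP comes from the study.

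After filterByExpr, which kept 16157 genes, TMM factors were computed and the 4 group means were estimated by glmQLFit with robust dispersions. Contrasts of these means used glmQLFTest (R 4.3.3, edgeR 4.0.16). A gene was called at an adjusted P under 0.05. The script was tested on simulated data. Intervals are 95% and the standard error derives from the F statistic. Levels are CPM after TMM, divided by exon-union length for comparisons between genes. No copies were found among the libraries (chi-square per degree of freedom at least 16.8 within groups and 4.77 between groups).

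Deviations of same-numbered libraries had an r over 0.1 in every pair only between 5-FU LGR5+ and LGR5- libraries (r = 0.571, 0.217 and 0.304), which were taken as paired. All 10 listed genes are named, and of each other list the 2 highest and 2 lowest called in LGR5+ cells. The tested claudins outside the list are named as well. Marveld2, F11r, Igsf5 and Sympk are named outside that rule, after their calls were seen. Cldn34c1, Ocln and Tjp1 are marked in the text as named after their values were seen. The members and lists were chosen with earlier results of these data known. 1 gene of the list of partners and proteases is not reported here and was left out of its counts. Alternatives were other filters and scalings, DESeq2 1.42.0, only the libraries compared, the replicate block, libraries left out and the thresholds of the study. The block in 6 libraries was added after seeing the data.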

Additional observations from a re-analysis of the deposited data

How the results depend on the processing

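In LGR5+ cells the 5-FU response of 6 claudin genes fell to 3 genes at the thresholds of the study (Cldn1, Cldn4 and Cldn23), and in LGR5- cells that of 5 genes fell to 3 under the same thresholds (Cldn1, Cldn4 and Cldn23) and to 3 in a fit of only the libraries compared (Cldn4, Cldn6 and Cldn23). The drops at the thresholds of the study follow from the fold limit. In the fit of only the libraries compared, Cldn1 did not pass the filter and was not tested, and Cldn3 lost its call at a log2 fold change of 0.82 against 0.81 (adjusted P = 0.120), of which the cause was not tested. With 1 library left out the counts were 4 to 6 in LGR5+ and 4 to 5 in LGR5- cells. Between treated populations the count of 0 became 1 (Cldn2) with the replicate block in only the 5-FU libraries, and the block in the fit of all 12 libraries changed no call of a claudin gene. Outside the treated libraries, same-numbered libraries did not all have an r over 0.1, so there the block carries only a shared number. At least 10 reads in every library removed Cldn1 from the test and left 5 and 4 genes.

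Directions turned only among genes that did not pass the test. In LGR5+ cells the log2 fold change of Cldn18 was -0.012 with the replicate block and -0.40 to 0.92 with 1 library left out, and that of Cldn12 was -0.30 to 0.088. In LGR5- cells that of Cldn7 was -0.0064 without both LGR5- replicates 3 and -0.16 to 0.23 with 1 library left out, that of Cldn2 -0.18 to 0.28 and that of Cldn18 -1.58 to 0.40.

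Over all genes the count called in LGR5+ cells was 2590, and 4448 without both LGR5- replicates 3, 4045 with only the libraries compared and 1586, 1451 and 1373 without untreated LGR5+ replicate 3 and 5-FU LGR5+ replicates 2 and 3. In LGR5- cells it was 2489, and 1282 with only the libraries compared and 1562, 1645 and 1647 without untreated LGR5- replicates 1 and 2 and 5-FU LGR5- replicate 2. Between treated populations it was 0, and 11 without a filter, 79 with DESeq2 and 451 with the block in only the 5-FU libraries.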
